A study of Mus musculus with 20 samples.

Results

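Triglyceride held in the lipid droplets of a hepatocyte is broken down stepwise by lipases, and 10 genes of this system were followed in mouse liver RNA-seq: 6 genes of the patatin-like phospholipase domain (PNPLA) family, Pnpla3, Pnpla2, Pnpla5, Pnpla6, Pnpla7 and Pnpla8, and Lipe, Mgll, Abhd5 and G0s2. They were taken by name out of 28100 genes listed in 2 tables of read counts, with Ensembl identifiers matched to GRCm38 symbols, and all 10 were present in both tables. The list was drawn up by the function of the genes with earlier results of these data known, and Pnpla3 was selected on its differences in level between the vector groups. Its values are therefore given as a description, without a test.

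All 20 mice were male C57BL/6J. Each received, intravenously at 8 weeks of age, an AAV8 vector (an adeno-associated virus that enters hepatocytes well) driven by the thyroxine binding globulin promoter, which is active in hepatocytes. All were then kept on the diet labelled HF/HS until 25 weeks. The knockdown experiment set 5 shPKLR livers, which carried a hairpin against Pklr, the liver pyruvate kinase of the last step of glycolysis, against 5 shLUC livers, which carried a luciferase hairpin. The overexpression experiment set 5 PKLR livers, which carried the Pklr cDNA, against 5 GFP livers. The hairpins and the cDNA were thus driven in hepatocytes, while RNA came from whole liver, so fewer cells of a type and less RNA per cell cannot be told apart.

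As background, the product of Pnpla2 (adipose triglyceride lipase, ATGL) takes the first fatty acid from triglyceride, that of Lipe (hormone-sensitive lipase) acts mainly on diacylglycerol, and that of Mgll (monoacylglycerol lipase) releases the last one. The product of Abhd5 activates ATGL and that of G0s2 inhibits it. PNPLA3 sits on lipid droplets, binds the same activator and has been reported to hydrolyse triglyceride; its gene is known to be raised by feeding and insulin through the sterol regulatory element binding protein SREBP-1c and the glucose-responsive factor ChREBP. PNPLA5 is a lipid droplet lipase too, whereas PNPLA6, PNPLA7 and PNPLA8 act mainly on phospholipids or lysophospholipids.

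Promoter windows are shown for Pnpla3, for Pnpla5, the member whose pattern over the livers was closest to that of Pnpla3, and for Pnpla2, the main triglyceride lipase, whose pattern was among the farthest. Each window runs from 250 bases before to 50 bases after the start site of RefSeq (GRCm38.p6), 5′ to 3′ on the strand of the gene. All 10 members were matched in the RefSeq table, with 14 windows. Both strands were searched for the E-box CACGTG, the sterol response element core TCACNCCAC and the CCAAT box, and capitals mark each match; a CCAAT box on the opposite strand reads ATTGG.
Pnpla3, chr15:84167566-84167865, plus strand: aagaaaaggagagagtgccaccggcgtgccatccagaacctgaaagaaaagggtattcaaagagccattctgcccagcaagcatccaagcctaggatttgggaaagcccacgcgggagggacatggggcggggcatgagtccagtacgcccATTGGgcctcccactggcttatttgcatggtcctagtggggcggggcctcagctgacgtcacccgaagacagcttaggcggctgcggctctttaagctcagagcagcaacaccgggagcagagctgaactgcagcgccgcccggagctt
Pnpla5, chr15:84123126-84123425, minus strand: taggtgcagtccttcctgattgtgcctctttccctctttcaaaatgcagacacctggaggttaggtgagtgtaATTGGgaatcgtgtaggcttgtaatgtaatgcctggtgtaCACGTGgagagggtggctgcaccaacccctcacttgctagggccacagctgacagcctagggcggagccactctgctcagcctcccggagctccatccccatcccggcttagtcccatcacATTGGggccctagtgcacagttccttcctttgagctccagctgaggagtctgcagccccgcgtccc
Pnpla2, chr7:141454938-141455237, plus strand: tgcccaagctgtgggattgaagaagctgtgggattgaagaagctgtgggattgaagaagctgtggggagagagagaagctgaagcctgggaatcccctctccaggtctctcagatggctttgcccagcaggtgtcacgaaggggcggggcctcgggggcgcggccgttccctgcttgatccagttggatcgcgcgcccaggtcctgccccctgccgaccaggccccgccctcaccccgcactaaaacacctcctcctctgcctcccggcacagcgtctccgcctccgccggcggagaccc

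The window of Pnpla3 held 1 CCAAT box, whose match began 99 bases before the start site, and no match to the other motifs. The window of Pnpla5 held an E-box at 137 bases before the start site and 2 CCAAT boxes, at 16 and 177 bases before it. The window of Pnpla2 held no match. Among the other members, Pnpla7 held 2 E-boxes, Lipe and Mgll held 1 each and Pnpla6 held 1 CCAAT box. Over 32851 promoter windows of the same length in the RefSeq table, 7.15% held the E-box, 1.24% the sterol response element core and 37.4% a CCAAT box. These matches are letters in a window only, and no binding was measured.

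Levels are given as counts per 1000000 (CPM), scaled by the trimmed mean of M-values (TMM) over all 20 livers, so that the 4 groups stand on 1 scale. Library totals were 29933820 to 45413803 counts in 19 livers and 167891680 in shPKLR replicate 4, and mitochondrially encoded genes took 7.79% to 10.98% of counts. In Pklr, every shPKLR liver was below, and every PKLR liver above, all control livers of its experiment. Pklr was at 69.9, 52.7, 40.7, 25.4 and 84.2 CPM in the shPKLR livers, against 377.9, 537.0, 350.4, 495.1 and 644.8 CPM in the shLUC livers. It was at 769.4, 838.7, 923.5, 379.1 and 817.7 CPM in the PKLR livers, against 63.9, 102.2, 134.3, 144.9 and 144.0 CPM in the GFP livers. Neither pair of groups overlapped. The 8 hepatocyte markers examined, Alb and Apoa1 among them, summed to between 66390 and 117072 CPM per liver, and none of them passed the test in any comparison.

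Pnpla3 (ENSMUSG00000041653; GRCm38 chromosome 15, 84167837 to 84187236, plus strand) had the lower mean in the group lower in Pklr within each experiment, though single livers did not all follow Pklr. It was at 5.42, 3.73, 0.58, 1.45 and 1.33 CPM in shPKLR livers 1 to 5, against 4.07, 7.59, 7.52, 32.4 and 23.6 CPM in shLUC livers 1 to 5. These values rest on 17 to 236 counts per liver with shPKLR and 117 to 1071 with shLUC. All of shPKLR livers 2 to 5 lay below every shLUC liver, while shPKLR replicate 1 lay above shLUC replicate 1, so the groups overlapped. The group means were 2.50 ± 2.01 CPM with shPKLR and 15.04 ± 12.3 CPM with shLUC (SD, n = 5 each). The fitted log2 fold change was -2.59 with a standard error (SE) of 0.65, a 6.01-fold lower level with shPKLR. It lay between -3.10 without shPKLR replicate 1 and -2.10 without shLUC replicate 4 when each liver was left out in turn.

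With overexpression, Pnpla3 stood apart between the groups. It was at 8.80, 8.43, 7.79, 5.93 and 2.82 CPM in PKLR livers 1 to 5, against 0.55, 1.09, 0.72, 1.15 and 1.52 CPM in GFP livers 1 to 5, from 79 to 359 and from 23 to 56 counts per liver. Every PKLR liver lay above every GFP liver. The group means were 6.75 ± 2.46 CPM with PKLR and 1.01 ± 0.38 CPM with GFP (SD, n = 5 each). The log2 fold change was 2.75 (SE 0.34), a 6.72-fold higher level with PKLR, and lay between 2.59 and 2.95 when each liver was left out in turn. The spread among livers of a group was wider in the knockdown experiment, where shLUC replicates 4 and 5 held the highest levels of the 20 livers.

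**Figure D1:**
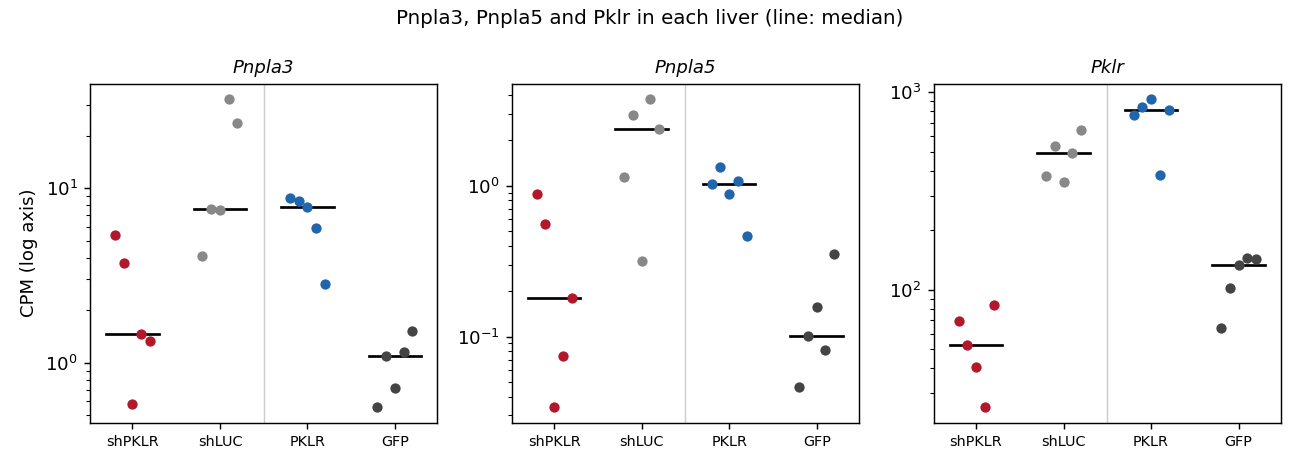
Levels of Pnpla3, Pnpla5 and Pklr in each of the 20 livers, in CPM on a log axis, with 1 point per liver and a line at the group median. Pnpla3 ran from 2.82 to 8.80 CPM in the PKLR livers, above the 0.55 to 1.52 CPM of the GFP livers, while its shPKLR and shLUC livers overlapped. The same held for Pnpla5 at a lower level.

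By group means, the 4 groups fell in the order shLUC, PKLR, shPKLR, GFP for Pnpla3. By medians the first 2 changed places, with PKLR at 7.79 CPM and shLUC at 7.59 CPM. The shLUC mean held the high values of replicates 4 and 5. Each neighbouring pair in the order of means overlapped between livers. The order of means differs from that of Pklr itself, for which the PKLR mean of 745.7 CPM was above the shLUC mean of 481.0 CPM. The GFP mean of Pklr, 117.9 CPM, was also above its shPKLR mean of 54.6 CPM. The controls of the experiments also differed: no GFP liver reached the lowest shLUC liver, and Pnpla3 was lower with GFP by a log2 fold change of -3.89 (SE 0.60), a 14.8-fold difference and larger than either vector effect. The GFP livers and the shLUC livers differ in both the vector and the experiment, and these cannot be told apart. This comparison shares its control livers with the knockdown and overexpression comparisons. Pklr differed in the same direction between the controls, by -2.02 on the log2 scale.

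Pnpla5 (ENSMUSG00000018868; chromosome 15, 84112356 to 84123175, minus strand) had a pattern close to that of Pnpla3. It was at 0.87, 0.56, 0.03, 0.07 and 0.18 CPM in shPKLR livers 1 to 5, against 1.15, 2.92, 0.31, 3.75 and 2.38 CPM in shLUC livers 1 to 5. It was at 1.03, 1.33, 0.88, 1.07 and 0.46 CPM in PKLR livers 1 to 5, against 0.05, 0.10, 0.16, 0.08 and 0.35 CPM in GFP livers 1 to 5. The shPKLR and shLUC livers overlapped, while the PKLR and GFP livers did not, and shLUC replicate 4 again held the highest level. These are low levels, from 1 to 120 counts per liver. PKLR replicate 5 and GFP replicate 5 each held 13 counts, so only the scaling by library size set them apart in CPM. By group means the 4 groups fell in the same order as for Pnpla3, with every neighbouring pair overlapping.

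Tests across all genes used edgeR's quasi-likelihood test with Benjamini-Hochberg adjustment and a threshold of 0.05. With overexpression, Pnpla5 rose by 2.70 on the log2 scale (SE 0.45, adjusted p = 0.0148 by edgeR), and it passed in all 10 fits that left out 1 liver. Its log2 fold change was 3.31 without GFP replicate 5, and in 1 fit of all 20 livers it was 2.69 with an adjusted p of 0.0591, which misses the threshold. With knockdown its log2 fold change was -2.69 (SE 0.76, edgeR adjusted p = 0.224), close in size to that of Pnpla3 and not past the threshold. The overexpression effect less the knockdown effect was 5.36 for Pnpla5 (SE 0.98, edgeR adjusted p = 0.00371) and 5.32 for Pnpla3 (SE 0.81). That difference for Pnpla5 was 6.14 without shPKLR replicate 1 and 5.98 without GFP replicate 5. Between the controls, Pnpla5 was lower with GFP than with shLUC by a log2 fold change of -3.82 (SE 0.72, edgeR adjusted p = 0.0039), which was -4.43 without GFP replicate 5.

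Pnpla3 and Pnpla5 are neighbours on chromosome 15 and are read away from each other, with 44.7 kb between them. The 1 annotated gene between them, the long intergenic RNA Gm33432, was not listed in both tables. Of 1524 windows of 25 bases in the Pnpla3 transcripts, 0 occurred in transcripts of Pnpla5 or of Pnpla2, Pnpla6, Pnpla7 or Pnpla8. The same held for windows of 30 and 50 bases. On the other side of Pnpla3, at a distance of 5.0 kb, Samm50, which encodes a subunit of the mitochondrial sorting and assembly machinery, had a log2 fold change of -0.33 with knockdown (SE 0.12, edgeR adjusted p = 0.268) and 0.10 with overexpression (SE 0.07, edgeR adjusted p = 0.448). Parvb, at 44.8 kb on that side, had 0.10 with knockdown (SE 0.21) and -0.27 with overexpression (SE 0.26), and neither passed. Parvg, at 136.8 kb, had -1.03 with overexpression (SE 0.37, edgeR adjusted p = 0.157). Apart from Pnpla3, which carries no test, Pnpla5 was the 1 tested gene within 300 kb called in either experiment.

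**Figure D2:**
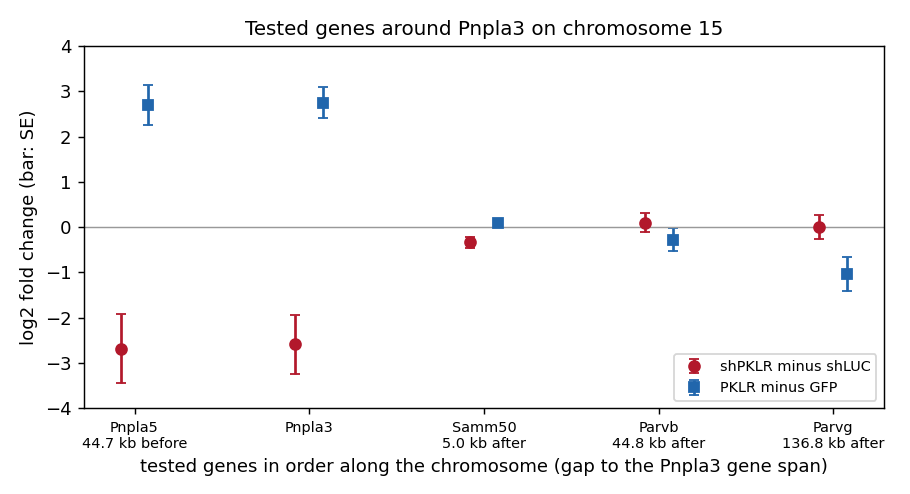
Log2 fold changes with SE for the tested genes within 300 kb of Pnpla3, in order along chromosome 15, for shPKLR minus shLUC (circles) and PKLR minus GFP (squares). Pnpla5 and Pnpla3 lie near -2.69 and -2.59 with knockdown and near 2.70 and 2.75 with overexpression, while Samm50 lies at -0.33 and 0.10.

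Calls were counted over the 9 members other than Pnpla3. With knockdown 0 of the 9 passed edgeR's adjusted threshold, where 0.00641% of all 15611 genes tested did, a single gene, Pklr. Pnpla5 was the 1 of the 9 with an unadjusted p under 0.05, against 15% of all genes, and neither DESeq2 nor 1 fit of all 20 livers called any of the 9. With overexpression 1 of the 9 passed, Pnpla5, which was higher, against 2.03% of the 15842 genes tested, or 1.19% for calls in that direction. Its PKLR and GFP livers did not overlap in CPM, as was so for 5.04% of genes, though replicate 5 of each group held 13 counts. None of the 9 had shPKLR and shLUC livers that stood apart, as was so for 3.21% of genes. In the difference between the overexpression and knockdown effects 1 of the 9 passed, again Pnpla5, against 5.5% of 16407 genes. Between the controls 1 of the 9 passed, Pnpla5, lower with GFP, against 5.81% of genes, or 2.33% for calls in that direction. The main filter on low counts kept all 10 members in each fit, and a stricter one of over 1 CPM in at least 5 libraries dropped Pnpla5 within each experiment.

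The other 8 members lay within a narrow band. Their log2 fold changes ran from -0.49 to 0.35 with knockdown and from -0.20 to 0.47 with overexpression, and their edgeR adjusted p-values were at least 0.367 and 0.161. The median over the 10 members was -0.04 with knockdown and 0.09 with overexpression, beside 0.02 and 0.01 over all genes tested. The ratio of the highest to the lowest group mean was 14.9 for Pnpla3 and 14.2 for Pnpla5, and between 1.03 and 1.45 for the other 8.

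**Figure D3:**
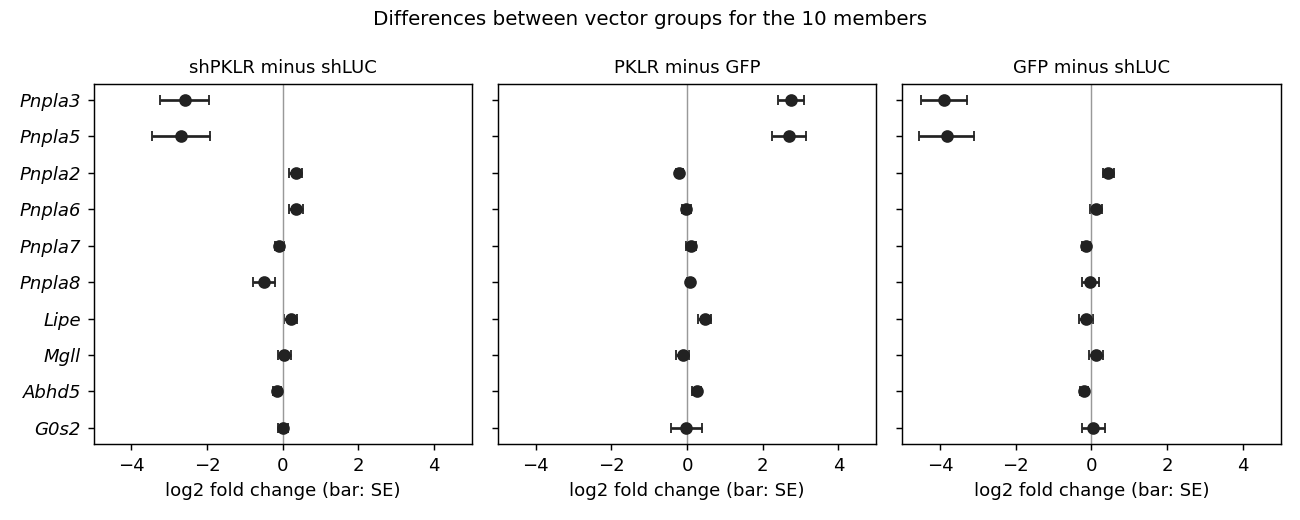
Log2 fold changes with SE of the 10 members for shPKLR minus shLUC, PKLR minus GFP and GFP minus shLUC. Pnpla3 and Pnpla5 lie beyond 2 in size in each panel, while the other 8 members lie between -0.49 and 0.47.

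Pnpla2, the main triglyceride lipase of lipid droplets, had log2 fold changes opposite in sign to those of Pnpla3, which did not pass the test. It was at 43.9, 84.7, 64.8, 83.4 and 98.2 CPM in shPKLR livers 1 to 5, against 65.4, 59.2, 57.4, 60.03 and 53.4 CPM in shLUC livers 1 to 5. It was at 68.9, 61.6, 65.8, 79.1 and 73.2 CPM in PKLR livers 1 to 5, against 77.0, 93.5, 77.9, 80.7 and 72.6 CPM in GFP livers 1 to 5. Both pairs overlapped. In shPKLR, replicate 1 held the lowest Pnpla2 of all livers and replicate 5 the highest. The log2 fold change was 0.34 with knockdown (SE 0.18, edgeR adjusted p = 0.367) and -0.20 with overexpression (SE 0.09, edgeR adjusted p = 0.242).

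The overexpression effect less the knockdown effect for Pnpla2 was -0.57 (SE 0.21, edgeR adjusted p = 0.097), which became -0.71 with an adjusted p of 0.0116 without shPKLR replicate 1. Between the controls Pnpla2 was 0.45 higher on the log2 scale with GFP (SE 0.15, edgeR adjusted p = 0.0706), where the GFP and shLUC livers did not overlap. Groups that do not overlap were found for 8.05% of genes in that comparison and, among the 9 members other than Pnpla3, for Pnpla2. Without shPKLR replicate 1 in the joint fit that control difference had an adjusted p of 0.0145.

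The regulators of ATGL differed in how tightly the livers agreed. Abhd5, the activator, was at 13.6 to 19.6 CPM with shPKLR and 15.5 to 18.6 CPM with shLUC, and at 14.8 to 20.1 CPM with PKLR and 13.4 to 18.8 CPM with GFP. The fold changes on the log2 scale were -0.15 with knockdown (SE 0.12, edgeR adjusted p = 0.509) and 0.25 with overexpression (SE 0.11, edgeR adjusted p = 0.242). The ranges overlapped in both experiments. G0s2, the inhibitor, was at 132.5, 111.4, 133.3, 157.5 and 126.5 CPM with shPKLR, against 129.9, 111.0, 153.6, 143.2 and 118.0 CPM with shLUC. It was at 139.7, 40.6, 76.2, 286.5 and 123.2 CPM with PKLR, against 151.4, 134.5, 124.6, 127.6 and 138.2 CPM with GFP. The means of G0s2 were nearly equal in all groups, at 131.1 to 135.2 CPM, while the PKLR livers held both its lowest and its highest value. Its log2 fold change was 0.01 with knockdown (SE 0.13) and -0.02 with overexpression (SE 0.41). In the PKLR group, replicate 4, the liver highest in G0s2, was the one lowest in Pklr.

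The later lipases of the pathway were not called. Lipe was at 8.61 to 16.9 CPM with shPKLR and 9.62 to 13.05 CPM with shLUC, and at 10.2 to 16.6 CPM with PKLR and 7.04 to 12.2 CPM with GFP. On the log2 scale Lipe differed by 0.21 with knockdown (SE 0.17, edgeR adjusted p = 0.542) and by 0.47 with overexpression (SE 0.17, edgeR adjusted p = 0.161). Lipe thus had the largest overexpression effect of the 8 members outside the pair, below the threshold. Mgll was at 139.4 to 288.4 CPM with shPKLR and 171.8 to 224.5 CPM with shLUC, and at 141.6 to 278.2 CPM with PKLR and 205.6 to 247.1 CPM with GFP. For Mgll the log2 fold change was 0.04 with knockdown (SE 0.18, edgeR adjusted p = 0.908) and -0.11 with overexpression (SE 0.17, edgeR adjusted p = 0.775). The ranges of both genes overlapped in each experiment. Lipe shares 918 exon bases with the antisense gene 4732471J01Rik, Abhd5 shares 950 with A730085K08Rik and Mgll 167 with Gm26588. Pnpla8 shares 91 with Gm47096 on the opposite strand, and Pnpla3 shares 105 with Gm49513 on its own strand. The strand setting of the counting is not given in the sources used here, so reads of the antisense pairs may not be separated.

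The phospholipase members of the family differed far less between groups than Pnpla3, and none was called. In the main fits Pnpla7 and Pnpla8 had the signs of Pnpla3 in both experiments, and Pnpla6 the opposite signs. Pnpla7, a lysophospholipase, was at 132.8 to 150.3 CPM with shPKLR and 127.7 to 175.9 CPM with shLUC, and at 120.6 to 171.6 CPM with PKLR and 110.2 to 154.8 CPM with GFP. Its log2 fold change was -0.09 with knockdown (SE 0.11) and 0.11 with overexpression (SE 0.13). Its group means fell in the same order as those of Pnpla3, but only from 152.3 CPM with shLUC to 138.3 CPM with GFP. The pseudogene Gm13370 lies within its span on the same strand, shares 0 exon bases with it and is counted apart. Pnpla6, neuropathy target esterase, was at 20.7 to 39.9 CPM with shPKLR and 16.8 to 26.8 CPM with shLUC, and at 19.4 to 28.3 CPM with PKLR and 20.9 to 26.7 CPM with GFP. For Pnpla6 the log2 fold change was 0.35 with knockdown (SE 0.19, edgeR adjusted p = 0.378) and -0.01 with overexpression (SE 0.11, edgeR adjusted p = 0.957). Pnpla8, a calcium-independent phospholipase of mitochondria and peroxisomes, was at 20.6 to 83.6 CPM with shPKLR and 67.6 to 100.004 CPM with shLUC, and at 70.5 to 97.2 CPM with PKLR and 74.0 to 84.3 CPM with GFP. Its log2 fold change was -0.49 with knockdown (SE 0.29, edgeR adjusted p = 0.406) and 0.08 with overexpression (SE 0.09, edgeR adjusted p = 0.692). The deepest library, shPKLR replicate 4, held both the lowest Pnpla8 and the highest Pnpla6, and without it the knockdown values were -0.27 for Pnpla8 and 0.20 for Pnpla6. Pnpla1, the remaining family gene, which acts in skin, had 0 to 11 counts per liver and was not tested.

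**Figure D4:**
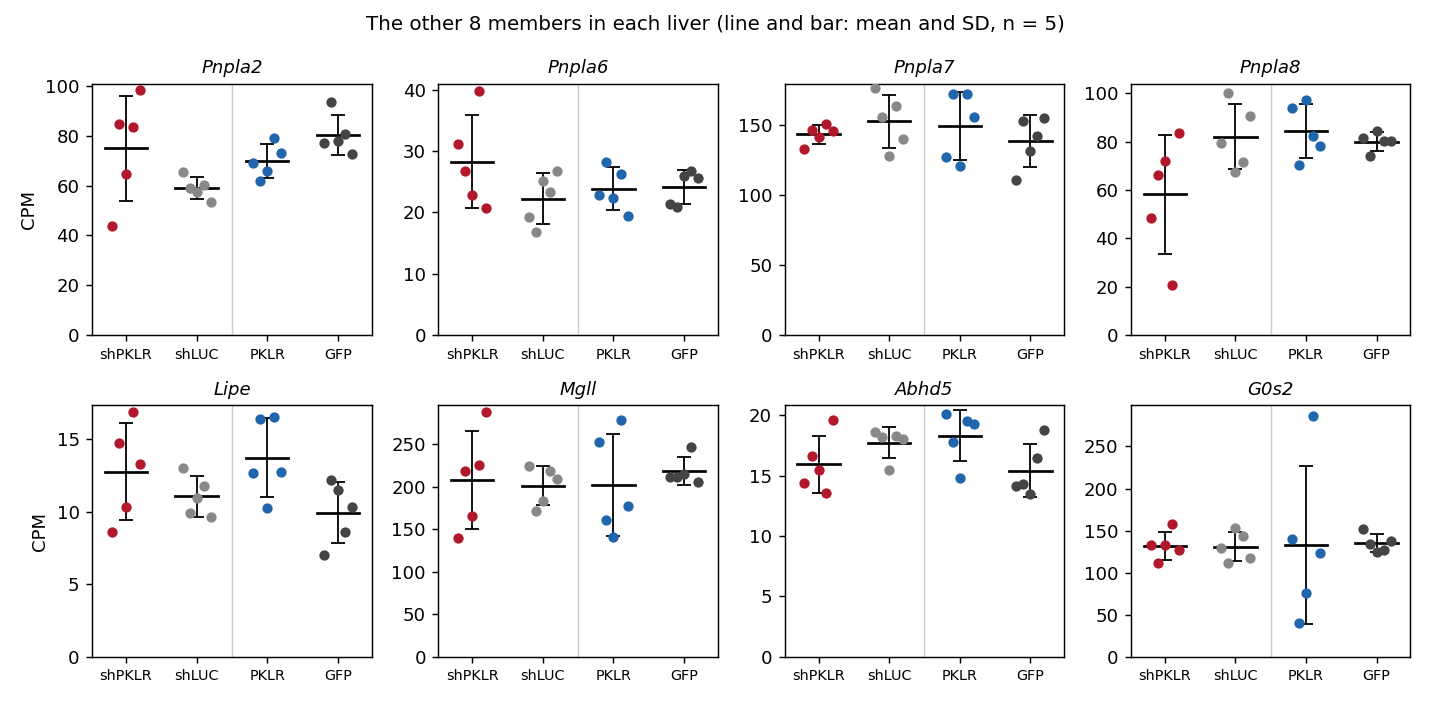
CPM of the other 8 members in each liver, with the group mean and SD (n = 5). The groups overlap in each experiment for all 8 genes; G0s2 spreads from 40.6 to 286.5 CPM among the PKLR livers.

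Levels can be compared between genes only per length, as CPM per kilobase of annotated exon. On this scale, averaged over the 4 groups, G0s2 was highest at 153 CPM per kb, followed by Mgll at 40.8, Pnpla2 at 23.5 and Pnpla7 at 19.4. Pnpla8 at 5.37, Pnpla3 at 4.09, Abhd5 at 2.83, Pnpla6 at 2.54 and Lipe at 2.02 CPM per kb lay close together, and Pnpla5 was lowest at 0.409. Pnpla3 changed its place in this order between groups, at 1.62 ± 1.30 CPM per kb with shPKLR, 9.72 ± 7.96 with shLUC, 4.36 ± 1.59 with PKLR and 0.65 ± 0.25 with GFP (SD, n = 5 each). By these means it was below Lipe with shPKLR and with GFP, and above Pnpla8 with shLUC. Single livers differed: in shPKLR replicate 1 Pnpla3 was above Lipe, at 3.50 against 1.46 CPM per kb. It was above Pnpla8 in shLUC replicates 3, 4 and 5 and below it in replicates 1 and 2.

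The balance between Pnpla3 and Pnpla2 differed between the groups, and its ratios use the values described above, with no test. The level of Pnpla2 per kilobase was a median of 29.4 times that of Pnpla3 in the shPKLR livers (4.15 to 57.6) and 3.91 times in the shLUC livers (0.95 to 8.24). It was 4.33 times in the PKLR livers (3.75 to 13.3) and 43.9 times in the GFP livers (24.5 to 71.2). In at least 1 shLUC liver the 2 genes were thus at a near equal level. As a share of the summed level per kilobase of the 6 family genes, Pnpla3 was a median of 1.73% with shPKLR (0.775% to 8.18%) and 10.04% with shLUC (4.71% to 29.2%). It was 9.51% with PKLR (3.34% to 10.4%) and 1.19% with GFP (0.738% to 1.81%).

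The ratio of Pnpla3 to Pnpla5 moved far less than either gene. Its median was 10.3 with shPKLR, 12.1 with shLUC, 8.92 with PKLR and 15.1 with GFP, and the livers ranged from 3.65 to 33.5. The ratios of the regulators to their target were also read. G0s2 per Pnpla2 had a median of 6.55 with shPKLR (4.47 to 10.5) and 7.67 with shLUC (6.50 to 9.28). Its median was 5.83 with PKLR (2.29 to 12.6) and 5.54 with GFP (4.99 to 6.82). In the PKLR livers its range was wider than that of Pnpla3 per Pnpla5 (7.76 to 12.4). Abhd5 per Pnpla2 had a median of 0.101 with shPKLR (0.0825 to 0.166) and 0.154 with shLUC (0.136 to 0.171), and of 0.134 with PKLR (0.114 to 0.148) and 0.0931 with GFP (0.0774 to 0.131). In both experiments the group lower in Pklr thus had the lower median of Abhd5 per Pnpla2, with overlapping livers.

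Likeness to Pnpla3 was measured as the root mean square difference in log2 CPM over the 20 livers, with each gene centred on its mean within each experiment, among 13256 genes at a mean of at least 1 CPM. A smaller value means deviations closer to those of Pnpla3 in both direction and size. Pnpla3 itself deviated from its experiment means by 1.57, which is also the value that a gene without any variation would have. The 6 closest genes were Hcn3 at 0.64, Thrsp at 0.72, Fasn at 0.79, Cyp46a1 at 0.80, Mvd at 0.82 and Chrna4 at 0.83. Pklr was the next at 0.85. Pnpla5 was at 0.65, between Hcn3 and Thrsp, but its mean of 0.888 CPM kept it out of the ranking. The ranking is a description over livers that share their group and library.

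Fasn (fatty acid synthase) and Thrsp (a regulator of lipogenesis) act in fatty acid synthesis, Mvd is an enzyme of the mevalonate pathway to cholesterol and Cyp46a1 hydroxylates cholesterol. Hcn3 encodes a cation channel and Chrna4 a subunit of the nicotinic acetylcholine receptor. Hcn3 lies on the opposite strand to Pklr on chromosome 3, and their gene spans overlap by 711 bases, so part of its likeness may be reads of Pklr that were not separated by strand, which was not tested. Fasn averaged 413.9 ± 148 CPM with shPKLR and 1425 ± 680 CPM with shLUC, and 926.8 ± 220 CPM with PKLR and 397.9 ± 117 CPM with GFP (SD, n = 5 each). The order of its group means was that of Pnpla3. Mvd averaged 9.92 ± 4.74 CPM with shPKLR and 35.2 ± 14.3 CPM with shLUC, and 23.1 ± 5.04 CPM with PKLR and 6.79 ± 2.75 CPM with GFP (SD, n = 5 each). As a ratio of the highest to the lowest group mean, Fasn and Mvd thus spanned less than Pnpla3.

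The other members stood far down in this ranking. Abhd5 was at 1.49 (rank 1571), Pnpla8 at 1.51 (rank 2038), Pnpla7 at 1.55 (rank 4011) and Lipe at 1.55 (rank 4350). Pnpla6 was at 1.60 (rank 7571), Mgll at 1.64 (rank 9505), Pnpla2 at 1.73 (rank 11784) and G0s2 at 1.75 (rank 11972). The last 4 differed from Pnpla3 by more than Pnpla3 varied about its own means. A gene that varies little lies near 1.57 whatever its pattern, so ranks near that value do not tell an unlike pattern from a small one.

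**Figure D5:**
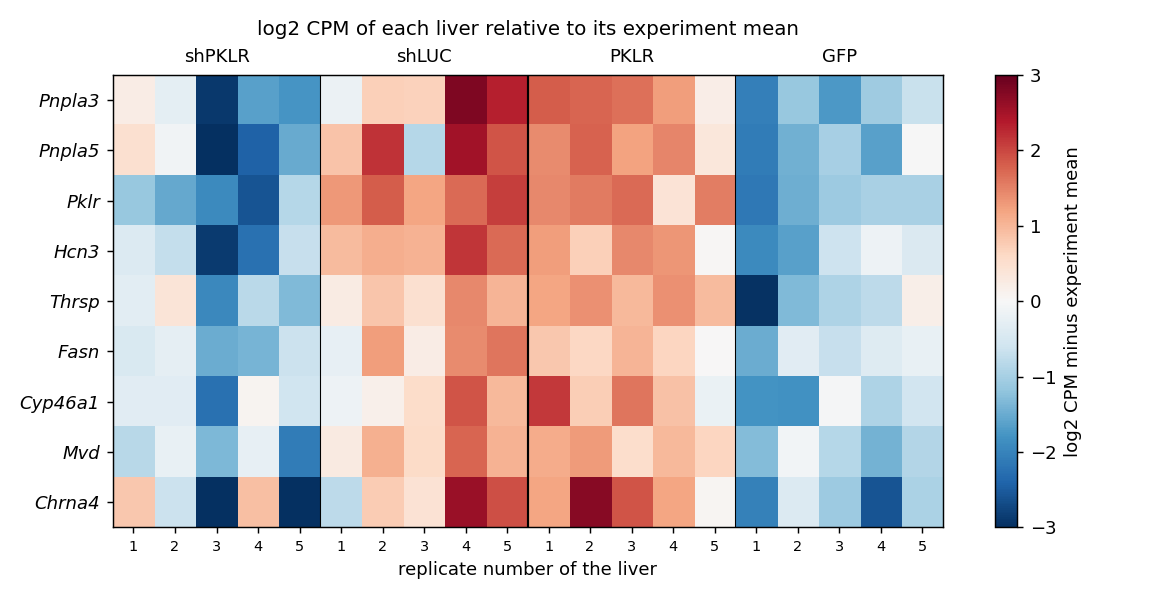
Log2 CPM of Pnpla3, Pnpla5, Pklr and the 6 genes closest to Pnpla3 in each liver, minus the mean of the gene within its experiment. Red marks livers above and blue livers below that mean; Pnpla3 spans -2.90 in shPKLR replicate 3 to 2.80 in shLUC replicate 4.

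Genes around the members in the same pathway were read from 4 lists. Among 22 other hydrolases of neutral lipid, 0 passed with knockdown, with a median log2 fold change of -0.02, and 2 fell and 0 rose with overexpression, with a median of 0.15, where 0.846% of all genes fell. Lpl, lipoprotein lipase, averaged 28.5 ± 10.3 CPM with shPKLR and 12.85 ± 1.95 CPM with shLUC, and 13.9 ± 4.38 CPM with PKLR and 49.5 ± 20.1 CPM with GFP (SD, n = 5 each). It ran against Pnpla3: its log2 fold change was -1.83 with overexpression (SE 0.33, edgeR adjusted p = 0.0237) and 1.15 with knockdown (SE 0.23, edgeR adjusted p = 0.109). The overexpression call was lost, at adjusted p-values of 0.0535 to 0.0587, without GFP replicate 1, 2 or 4 or PKLR replicate 3 or 4. It was also lost with no filter on low counts (adjusted p = 0.059) and with a replicate block (adjusted p = 0.0655). The overexpression effect less the knockdown effect for Lpl was -3.004 (SE 0.41, edgeR adjusted p = 0.000505), and it passed in all 20 fits that left out 1 liver.

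Ces1b, a carboxylesterase with close paralogs whose reads may be shared, fell with overexpression by 0.60 on the log2 scale (SE 0.13, edgeR adjusted p = 0.0389). That call held in 2 of the 10 fits that left out 1 liver, those without GFP replicate 5 or PKLR replicate 3, and the adjusted p was 0.056 to 0.0848 in the others. Its overexpression effect less its knockdown effect was -1.13 (SE 0.20, edgeR adjusted p = 0.00343), and Lpl and Ces1b were the 2 genes of the list that passed there. Ces2c, another carboxylesterase, had 1.05 with overexpression (SE 0.27, edgeR adjusted p = 0.0786) and 0.40 with knockdown (SE 0.33, edgeR adjusted p = 0.543).

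Of 16 proteins of the lipid droplet surface and lipolysis control, 15 were tested and 0 passed in either experiment, with medians of -0.11 with knockdown and -0.02 with overexpression. When the knockdown effect was taken from the overexpression effect, 2 of the 15 passed, Prkaca and Cidea, both positive, against 2.75% of all genes in that direction. Prkaca, the catalytic subunit of protein kinase A, which phosphorylates droplet proteins, was at 0.64 (SE 0.13, edgeR adjusted p = 0.00946), from -0.47 with knockdown and 0.20 with overexpression. Cidea, a droplet fusion protein, was at 5.57 (SE 1.60, edgeR adjusted p = 0.0467), but passed in 5 of the 20 fits that left out 1 liver and was 4.10 without PKLR replicate 4, its highest liver at 18.6 CPM. It was 6.92 without shPKLR replicate 2 and 6.90 without GFP replicate 5. Plin5, a droplet coat protein, had -0.51 with overexpression (SE 0.16, edgeR adjusted p = 0.117) and -0.09 with knockdown (SE 0.16, edgeR adjusted p = 0.777).

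Of 11 enzymes that return fatty acid to triglyceride, all tested, 0 passed with knockdown and 0 with overexpression, where 10 had a negative and 7 a positive log2 fold change and the medians were -0.51 and 0.17. For the overexpression effect less the knockdown effect 4 passed, all positive, as 2.75% of all genes were: Gpam, the glycerol-phosphate acyltransferase of the first step, at 2.52 (SE 0.57, edgeR adjusted p = 0.0152), Dgat2, of the last step, at 1.01 (SE 0.25, edgeR adjusted p = 0.0214), Acsl5 at 0.92 (SE 0.23, edgeR adjusted p = 0.0246) and Agpat2 at 0.66 (SE 0.18, edgeR adjusted p = 0.033). Gpam, Dgat2 and Acsl5 passed in all 20 fits that left out 1 liver. Agpat2 passed in 14 of them, missing without shLUC replicate 1 or 4, GFP replicate 1 or 2, or PKLR replicate 4 or 5. Gpam averaged 65.2 ± 40.5 CPM with shPKLR and 201.0 ± 103 CPM with shLUC, and 174.5 ± 52.3 CPM with PKLR and 92.7 ± 19.6 CPM with GFP (SD, n = 5 each). With knockdown, the smallest p-values of the list belonged to Acsl3 (-0.67, SE 0.16, edgeR adjusted p = 0.179), Mogat1 (-1.23, SE 0.31, edgeR adjusted p = 0.194) and Agpat2 (-0.51, SE 0.13, edgeR adjusted p = 0.194).

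Of 12 regulators known to act on Pnpla3 or Pnpla2 transcription, 0 passed in either experiment, with medians of -0.26 with knockdown and 0.18 with overexpression. Insig1, which holds the sterol regulatory element binding proteins in the endoplasmic reticulum, narrowly missed the threshold in both, at -1.10 with knockdown (SE 0.15, edgeR adjusted p = 0.0509) and 0.78 with overexpression (SE 0.18, edgeR adjusted p = 0.0534). It passed in 9 of 18 alternative fits with knockdown and in 6 of 17 with overexpression, DESeq2 and the replicate block among them in both. Its means were 201.3 ± 26.4 CPM with shPKLR and 432.9 ± 79.8 CPM with shLUC, and 323.5 ± 32.2 CPM with PKLR and 189.1 ± 53.3 CPM with GFP (SD, n = 5 each). For the overexpression effect less the knockdown effect, Insig1 at 1.85 (SE 0.24, edgeR adjusted p = 0.000446), Srebf2 at 1.06 (SE 0.22, edgeR adjusted p = 0.00968) and Mlx, the partner of ChREBP, at 0.43 (SE 0.11, edgeR adjusted p = 0.034) passed, 3 of the 12 and all positive, against 2.75% of all genes in that direction. Insig1 and Srebf2 passed in all 20 fits that left out 1 liver. Mlx passed in 13, missing without shLUC replicate 1, 2 or 5, GFP replicate 1 or 2, or PKLR replicate 4 or 5. The medians of all genes in that comparison were -0.06, beside 0.66 for the re-esterification list and 0.44 for the regulators.

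Markers of other cells of the liver were measured beside the members. All 9 macrophage markers were positive with knockdown, 0 of them called. With overexpression 7 of 9 were negative and 1 of them, Gpnmb, was called, where 0.846% of all genes fell. The macrophage markers summed to 111 to 295 CPM with shPKLR and 123 to 225 CPM with shLUC. Their sum was 87.9 to 256 CPM with PKLR and 96.0 to 428 CPM with GFP. All 8 stellate cell markers were negative with overexpression, 0 of them called, and summed to 135 to 258 CPM with PKLR and 207 to 445 CPM with GFP. With knockdown 5 were positive and 3 negative, 0 called, with sums of 126 to 230 CPM with shPKLR and 159 to 249 CPM with shLUC. In the difference of effects 3 of 9 macrophage markers (Marco, Trem2 and Gpnmb) and 3 of 8 stellate markers (Col1a2, Col3a1 and Des) were called negative. Among all genes 2.75% were called in that direction. Between the controls 2 of 9 macrophage markers (Trem2 and Gpnmb) and 4 of 8 stellate markers (Col1a1, Col1a2, Col3a1 and Pdgfrb) were called higher with GFP. That direction was called for 3.47% of all genes. Pnpla5 was called in both of these comparisons too. Of 9 adipocyte markers, 8 were in both tables and 3 were tested, and their sum was 8.26 to 31.0 CPM with shPKLR and 7.30 to 16.7 CPM with shLUC, and 5.20 to 41.3 CPM with PKLR and 10.9 to 19.004 CPM with GFP. None of 5 endothelial and 5 erythroid markers was called with knockdown or overexpression. Adipocytes are the main site of ATGL and Lipe outside liver, so their markers were read in each group. Fabp4, which macrophages and endothelium also express, averaged 10.98 CPM with shPKLR and 7.20 CPM with shLUC, and 5.42 CPM with PKLR and 9.03 CPM with GFP. Adipoq, the more specific marker, averaged 0.912 CPM with shPKLR (median 0.049, highest 3.54) and 0.215 CPM with shLUC (median 0.032, highest 0.976). It averaged 0.054 CPM with PKLR and 0.016 CPM with GFP. The shPKLR and shLUC means thus lay far above the medians. In the difference of effects Fabp4 was called negative and Cidea positive, of 3 adipocyte markers tested, against 2.75% of all genes in each direction. The part of these cells in the values of the members was not tested.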

How the data were processed

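The authors deposited 2 tables of raw read counts per gene, 1 per experiment, for 20 livers; columns were matched to libraries by name, with 0 left unmatched. The submitters' processing notes name HISAT2, DESeq2 and the builds GRCm38 and mm10, and give neither a counting program nor a strand setting. The members, gene lists, tests and rule for naming genes were chosen with earlier results of these data known. The rule named all members, the calls and the 3 smallest p-values of each list, the 6 genes most like Pnpla3 and its tested neighbours. Parvb, Pnpla5's place beside the ranking and the marker genes were added after values were seen.

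Tests used edgeR 4.0.16 (TMM, filterByExpr, robust quasi-likelihood) in R 4.3.3, in 1 fit per experiment, with Benjamini-Hochberg adjustment at 0.05. A joint fit of 25238 shared genes, 16407 after the filter, gave the overexpression effect less the knockdown effect, and GFP minus shLUC. The SE is the size of the log2 fold change divided by the square root of F. Exon lengths and coordinates came from GENCODE M21 (GRCm38). Likeness used log2 CPM with a prior count of 2. Alternatives used DESeq2 1.42.0, limma-voom (limma 3.58.1), RLE size factors, a filter of over 1 CPM in 5 libraries or none, a replicate block, 1 fit of all livers, each liver left out, and shPKLR replicate 4 thinned to a usual depth; the last was chosen after seeing the data for the joint fit. The steps were tested on simulated counts. Per the series' design text each group held 5 mice.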

Additional observations from a re-analysis of the deposited data

Results flagged for a closer look

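In GFP livers, Mgll was highest in replicate 4, at 247.1 CPM, where the next liver was at 215 CPM; that gap took 0.774 of the whole range of the group. In shLUC livers, Abhd5 was lowest in replicate 3, at 15.45 CPM, where the next liver was at 18.05 CPM, a gap of 0.811 of the range. Both passed Dixon's 95% critical value of 0.71 for 5 samples. In all, 40 sets of 5 livers were examined, 10 members in 4 groups, and chance picks out about 1 in 20 of them, so 2 of 40 is what chance gives. For Pnpla5 the overexpression effect less the knockdown effect was 5.358 on the log2 scale, past the adjusted threshold of edgeR's quasi-likelihood test. The vectors change Pklr in opposite directions, and the effects on Pnpla5 were close in size at 2.70 and -2.69, so this value does not show a response that differs in size. It was found with every PKLR liver above every GFP liver in CPM and the shPKLR and shLUC livers overlapping. In counts, PKLR replicate 5 and GFP replicate 5 were equal at 13.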

How the results depend on the processing

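Pnpla3 and Pnpla5 kept their direction in every fit run. The count of genes called with knockdown was 1, against 7 with RLE size factors, 17 with no filter and 260 with DESeq2. It was 8 with limma-voom, 114 in 1 fit of all 20 livers and 7 with shPKLR replicate 4 thinned. Pnpla3 carries no test here and is left out where members are counted. None of the other members was called with knockdown in any of these fits. With overexpression the count of genes called was 322, against 1107 with DESeq2. Pnpla5 was the 1 other member called there, in the main fit and with DESeq2. The filter of over 1 CPM left Pnpla5 untested, and it was not called in 1 fit of all livers. That fit split its calls into 120 higher and 218 lower, against 188 higher and 134 lower. For the overexpression effect less the knockdown effect it was 902, against 1614 with DESeq2. The cause of these shifts was not tested.

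The replicate block gave 3 calls with knockdown and 544 with overexpression and changed no call of a member. Same-numbered livers deviated together with correlations of -0.273 to 0.444 in knockdown and -0.087 to 0.269 in overexpression, not all over 0.1. Not every liver correlated best with its own number, though shPKLR replicate 4 and PKLR replicates 1 and 5 did. With 5 livers per group such correlations cannot decide whether the numbers pair the mice, and the main fits left them unpaired.

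Leaving out 1 liver gave 1 to 12 calls with knockdown (3 without shLUC replicate 1, 6 without shPKLR replicate 1 or 3, 12 without shPKLR replicate 2). None of the members tested was called there. With overexpression, leaving out 1 liver gave 128 (without GFP replicate 4) to 469 calls, with 213 or fewer without GFP replicate 1 or 2 or PKLR replicate 1, 2, 3, 4 or 5. Of the members tested, Pnpla5 alone was called in these overexpression fits, and it was called in every one. Leaving out 1 liver gave 485 (without shLUC replicate 2) to 1384 (without shPKLR replicate 2) calls for the difference of effects. Between the controls it gave 415 (without GFP replicate 1) to 1315 calls. In both comparisons Pnpla5 was called in all 20 fits and Pnpla2 in 1, that without shPKLR replicate 1. The main fits called 5.5% of genes for the difference of effects and 5.81% between the controls.

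Signs turned only for log2 fold changes near 0 in the main fit. With knockdown these were Mgll (-0.094 to 0.15), G0s2 (-0.054 to 0.085) and Plin5 (-0.16 to 0.028). With overexpression they were G0s2 (-0.50 to 0.21), Pnpla6 (-0.082 to 0.050) and Acsl3 (-0.082 to 0.092). Between controls they were Pnpla8 (-0.081 to 0.059) and G0s2 (-0.0014 to 0.12). For the difference of effects it was G0s2 (-0.55 to 0.18). The overexpression value of G0s2 was -0.50 without PKLR replicate 4 and 0.21 without PKLR replicate 2, so its sign depended on single livers. Acsl3 with overexpression was also 0.0083 with no filter, 0.017 with limma-voom and 0.015 with the block. Among the members, Pnpla5 had the lowest counts, at 1 to 120 per liver.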
